A study of Mus musculus with 6 samples.

Results

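Guanylate-binding proteins are large GTPases that cells make in quantity after exposure to interferons, above all interferon-gamma. The 10 mouse genes described here are Gbp2, Gbp2b, Gbp3, Gbp4, Gbp5, Gbp6, Gbp7, Gbp8, Gbp9 and Gbp11. They were taken by their GENCODE vM21 symbols, and they are 10 of the 27378 gene IDs counted in CD45+ immune cells from mouse brain. Earlier results of the same data, in which this family stood out in tumours against healthy brain, led to its choice. Levels against healthy brain are therefore given below as a description, and the counts of members called in that contrast support nothing.

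The proteins assemble on the membranes of vacuoles that hold bacteria or protozoa, and on bacteria free in the cytosol. There they help to break open the compartment and to expose its contents to caspase-11 and the inflammasomes. Interferon-gamma binds its receptor, made of Ifngr1 and Ifngr2 chains, and its signal reaches genes through gamma-activated sites (GAS) in their DNA. It also induces Irf1, which binds interferon-stimulated response elements (ISRE), and interferon of type I acts on the same elements. Gbp2, Gbp2b and Gbp5 end in a CaaX motif to which a lipid is attached, and the other members do not. In the brain, microglia are the resident macrophages of the tissue, and other macrophages line its borders or arrive as monocytes.

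The cells came from 3 groups with 2 libraries each. Healthy brains carried wild-type Trp53 and Rbpj. Control tumours were gliomas with Trp53 knocked out and Rbpj wild type, and Rbpj-deleted tumours had both Trp53 and Rbpj knocked out. The knockouts are those of the tumour, early gliomas cut out by the GFP of a Cre reporter, and no source used here says in which cells Cre acted or gives the age of the mice. The design text counts 9 brains behind the healthy group, 15 tumours behind the control group and 9 behind the Rbpj-deleted group, all pooled, whereas the protocol describes 1 well for each mouse. Which mice entered which library was not given, so the spread between libraries of a group, on which every p-value rests, may be technical.

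After removal of low-quality barcodes, barcodes with the same sequence as a far larger one in another library, and barcodes holding markers of 2 lineages, 14473 of 17362 barcodes were kept. The mixed-lineage step cut the groups unevenly. It took 720 of 7263 and 143 of 2644 barcodes in healthy 1 and 2, and 264 of 1292 and 247 of 758 in control 1 and 2. In Rbpj-deleted 1 and 2 it took 699 of 3057 and 543 of 2348. Of all 2616 so removed, 1828 held myeloid markers together with T or NK cell markers. The libraries held 6461 and 2437 cells (healthy 1 and 2), 959 and 509 (control 1 and 2) and 2321 and 1786 (Rbpj-deleted 1 and 2). Median UMI counts per cell ran from 5296 in healthy 1 to 9791 in control 1. Of the barcode sequences, 119 occurred in at least 2 libraries, and 74 kept cells had such a sequence. The libraries parted along a second line as well. Trim12a, a gene picked after its values were seen, had 1 UMI in microglia-like cells of healthy 1 and 0 in both control libraries, but 313 in healthy 2 and 428 and 112 in the Rbpj-deleted libraries. A difference between the tumour genotypes cannot be told apart from this split.

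Cells were grouped into 28 clusters without use of the family genes, and the clusters were named by marker lists. The microglia-like class had 4921 and 1933 cells in the healthy libraries, 235 and 224 in the controls and 1126 and 517 in the Rbpj-deleted libraries. All 10 microglia markers were detected in it. The marker Tmem119 stood between 1093 and 2474 CPM (a gene's share of all UMIs of the class sum, on the usual CPM scale) in its 6 sums, but P2ry12, a defining surface receptor of microglia, reached only 6.60 to 25.2 CPM. The monocyte/macrophage-like class, called macrophage-like from here on, had 955 and 291, 189 and 65, and 491 and 745 cells in the same order. Different clusters filled these classes in health and tumour. Healthy macrophage-like cells were mostly Lyve1+ Pf4+ border macrophages. Those of tumours were mostly cells led by Ly6i, Saa3 and Lyz1 and cells led by Ccl8, Gbp2b and Dnase1l3. Microglia-like cells were mostly in clusters led by Slc2a5 in healthy 1 and by Hspb1 and Gpr34 in healthy 2 (90.2%), and in tumours mostly in clusters led by Spp1, by Csf1 or, in control 1, by Adamts1.

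Promoter windows from RefSeq (GRCm38.p6) were matched for 5 of the 10 members, those on chromosome 3, and each of the 5 had the core of an ISRE in a window. The 5 members on chromosome 5 were not searched. The sequences are shown because all 5 genes were higher in tumour than in healthy myeloid sums. The core searched was TTTCNNTTTC on either strand (GAAANNGAAA on the other), and the GAS was TTCNNNGAA, which reads the same on both strands. Motif letters stand in capitals, all stretches are from the plus strand, and positions count from the annotated start site.
Gbp5: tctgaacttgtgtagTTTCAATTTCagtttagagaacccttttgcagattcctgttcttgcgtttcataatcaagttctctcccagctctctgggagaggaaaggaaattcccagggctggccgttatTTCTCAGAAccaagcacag
Gbp7: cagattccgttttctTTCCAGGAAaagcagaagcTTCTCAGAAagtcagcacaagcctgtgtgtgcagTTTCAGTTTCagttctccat
Gbp3: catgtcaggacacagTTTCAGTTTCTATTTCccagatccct
Gbp2b: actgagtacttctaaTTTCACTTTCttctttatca
Gbp2: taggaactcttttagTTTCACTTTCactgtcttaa
The Gbp5 stretch lies at chr3:142496754-142496900 and the Gbp7 stretch at chr3:142530215-142530302. The Gbp3 stretch lies at chr3:142559984-142560024, the Gbp2b stretch at chr3:142594695-142594729 and the Gbp2 stretch at chr3:142620589-142620623, of which 22 bases fall in an exon of GENCODE. All 5 ISRE cores lay upstream of the RefSeq start: at base -165 in Gbp5, -53 in Gbp7, -45 in Gbp3, -137 in Gbp2b and -59 in Gbp2. The Gbp2 core, at chr3:142620604-142620613, lies past the start that GENCODE gives the gene and within those exon bases. The RefSeq start of Gbp5 used here lies inside the span that GENCODE gives the gene. In Gbp3 a second core began at base -39 and overlapped the first, and a second annotated Gbp3 window held no match.

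Windows with an ISRE core were 3.44% of the 32851 windows of this length in the table, windows with a GAS 8.3%, and windows with both 0.454%. Gbp5 and Gbp7 held both motifs. The GAS of Gbp5 began at bases -245 and -52, and those of Gbp7 at -106 and -87. These are matches of letters, and binding was not measured.

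**Figure D1:**
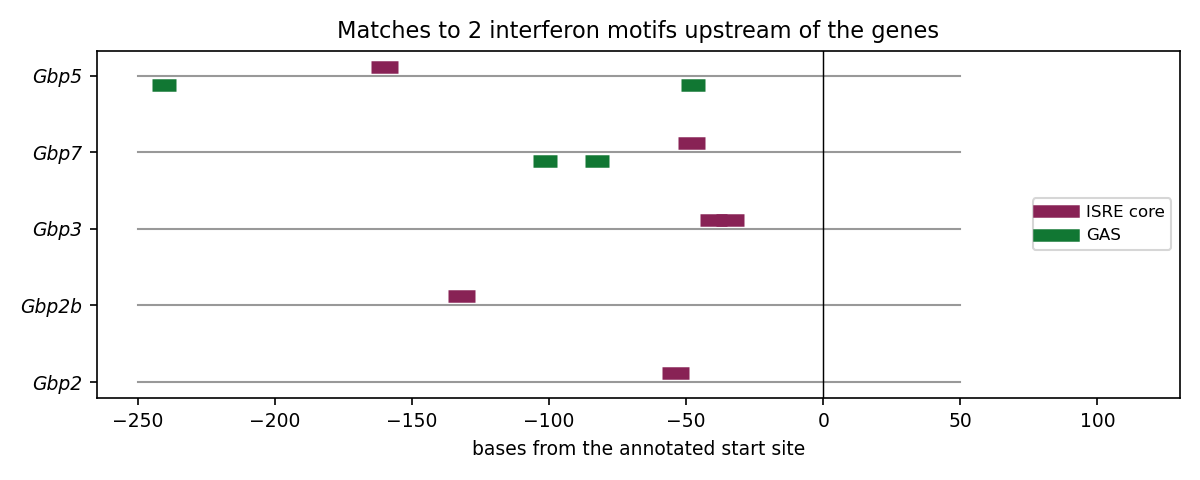
Positions of ISRE core matches and GAS matches in windows from 250 bases before to 50 after the start site of 5 family genes; the x axis is in bases from the start. Each gene has at least 1 ISRE core between -165 and -30, and Gbp5 and Gbp7 also have 2 GAS matches each.

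The family lies in 2 clusters (mm10, GENCODE vM21). On the plus strand of chromosome 3 follow Gbp5 (142493978-142522344), Gbp7 (142530342-142550149), Gbp3 (142560026-142573209), Gbp2b (142594847-142619179) and Gbp2 (142620602-142638008). On the minus strand of chromosome 5 lie Gbp8 (105014150-105139540), Gbp9 (105077630-105139539), Gbp4 (105115767-105139586), Gbp6 (105270702-105293698) and Gbp11 (105323042-105346472). Gbp11 is annotated as a polymorphic pseudogene. The spans of Gbp8, Gbp9 and Gbp4 overlap on the same strand.

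The copies differ enough to be counted apart on chromosome 3, less so on chromosome 5. Within the last 500 bases, where 3′ libraries take their tags, Gbp2b and Gbp7 shared no 31-base word with another gene. Gbp4 shared 22.2% of these words, Gbp11 33.8%, Gbp8 17% and Gbp9 13.6%. Gbp6 shared 94.2%, most of it with the predicted gene Gm43302 (93.2%). Gbp10, a gene outside the 10, shared its end in full, 96.7% of it with Gbp6, so counts of Gbp6 and Gbp10 are uncertain. Over all barcodes Gbp6 had 7 UMIs and Gbp10 had 658.

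Gbp2 made up 32.06% of the family's UMIs over all barcodes and Gbp7 30.7%. Gbp6, with 0 UMIs in microglia-like cells of every library and 4 in tumour macrophage-like cells, passed no filter and is not described further. In microglia-like cells 8 of the 10 genes passed the filter on low counts, in macrophage-like cells 9 and in T-like cells 7. Genes that pass through a group in which they are high had to differ, so these counts say nothing of the family.

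In healthy brain the family was low and was mostly Gbp7. Its summed level was 170.5 and 159.7 CPM in the 2 healthy microglia-like sums, of which Gbp7 gave 73.6% and 71.8%. In healthy macrophage-like cells the sum was 334.5 and 451.7 CPM, and Gbp7 gave 77.5% and 73.5%. A 3′ library gives 1 tag per molecule whatever the length of the transcript, so these shares compare molecules, apart from how well each gene can be aligned.

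In tumours Gbp2 led in place of Gbp7. The summed level in microglia-like cells was 1261 and 983 CPM in control tumours and 594 and 628 CPM in Rbpj-deleted tumours. In macrophage-like cells it was 2848 and 1752 CPM in controls and 1801 and 1870 CPM in Rbpj-deleted tumours. Gbp2 gave between 28.9% and 46.4% of the family in these 8 sums, and Gbp7 between 16.7% and 30.5%.

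**Figure D2:**
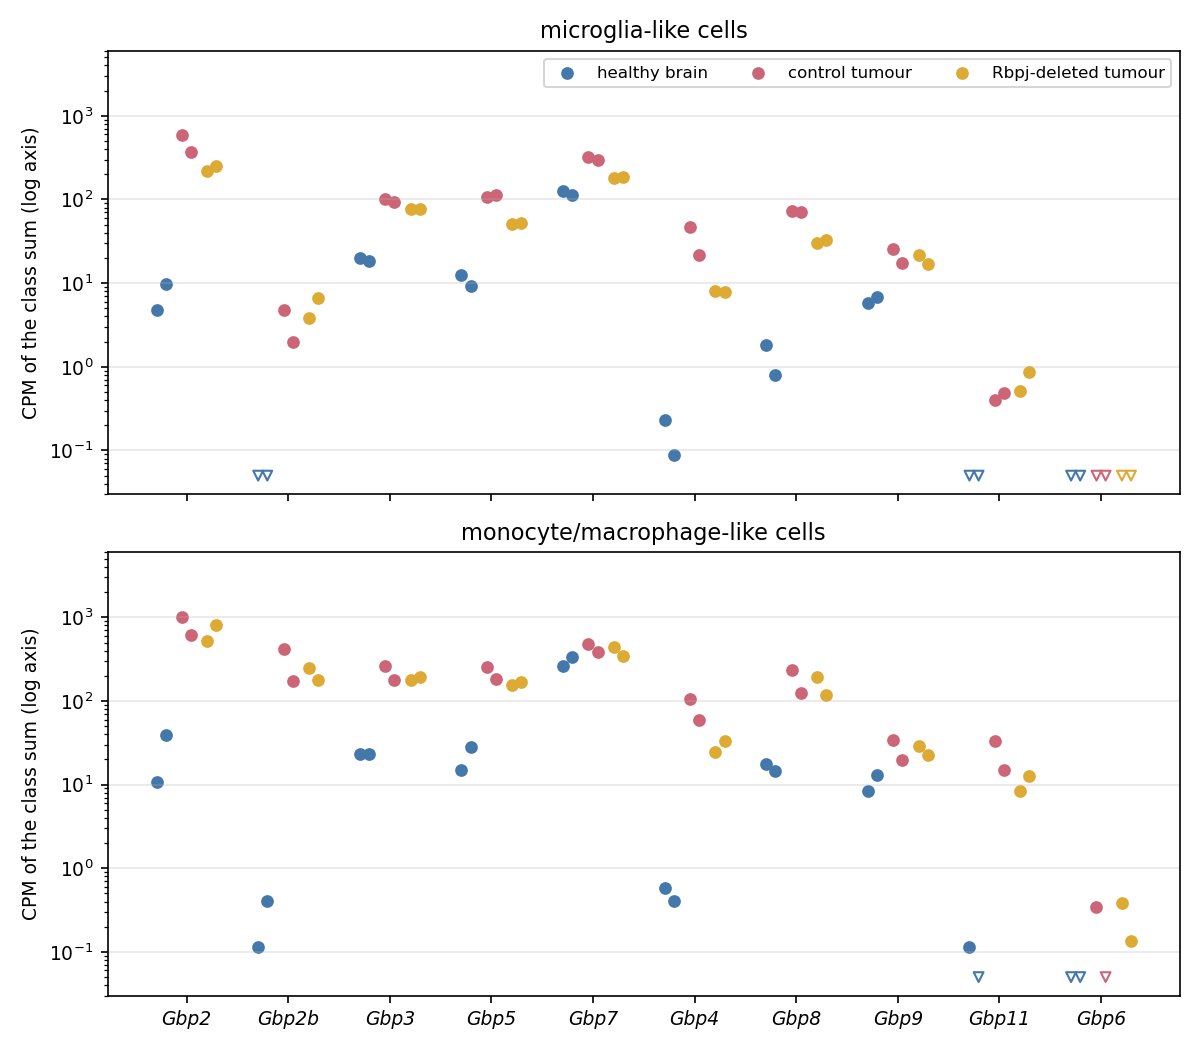
CPM of each gene (log axis) in the microglia-like sum (top) and the macrophage-like sum (bottom) of each of the 6 libraries, 1 point a library; open triangles at the foot mark sums with 0 UMIs. For Gbp2 the healthy points lie at 39.7 CPM or lower and the tumour points at 219.9 CPM or higher.

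Among the members with a lipid anchor, Gbp2 was the most abundant in tumour myeloid cells. In microglia-like cells it stood at 4.72 and 9.75 CPM in healthy brain, 585 and 366 CPM in control tumours and 219.9 and 248.0 CPM in Rbpj-deleted tumours. In macrophage-like cells it stood at 10.7 and 39.7 CPM, 1018 and 608 CPM, and 520.3 and 799 CPM. No tumour sum overlapped a healthy one, and the ratio of mean CPM in control tumours to that in healthy brain was 65.8 in microglia-like and 32.3 in macrophage-like cells.

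Gbp2b, the gene formerly called Gbp1, was almost absent from all healthy sums. Microglia-like cells had 0 UMIs of it in both healthy libraries, 4.81 and 1.97 CPM in controls and 3.86 and 6.60 CPM in Rbpj-deleted tumours. Against a floor of 3 counts over the healthy sums, the pooled level was at least 49.1-fold higher in controls and at least 63.6-fold higher in Rbpj-deleted tumours. Macrophage-like cells had 1 UMI in each healthy library but 423 and 174 CPM in controls and 249.2 and 179.7 CPM in Rbpj-deleted tumours. The pooled control level was 1988 times the healthy one, with a 95% interval of 549 to 16430 that covers counting error only.

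Gbp5, which promotes assembly of the Nlrp3 inflammasome, was present in health at a low level. Its microglia-like sums were 12.6 and 9.22 CPM in healthy brain, 106.6 and 114.7 CPM in controls and 51.5 and 52.8 CPM in Rbpj-deleted tumours. Its macrophage-like sums were 14.9 and 28.4 CPM, 258.2 and 182.1 CPM, and 153.2 and 167.6 CPM. In both classes the tumour sums lay above the healthy ones, and the Rbpj-deleted sums lay below the controls.

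Gbp7, the main member in healthy brain, had the smallest ratios to it. Microglia-like cells held 125.5 and 114.7 CPM in healthy brain, 318.2 and 296.4 CPM in controls and 181.1 and 185.7 CPM in Rbpj-deleted tumours. Macrophage-like cells held 259.1 and 332.2 CPM, 475.2 and 390.1 CPM, and 442.3 and 346.1 CPM. The ratio of control to healthy means was 2.56 in microglia-like cells and 1.46 in macrophage-like cells, and the healthy and tumour sums still did not overlap. Gbp3, its neighbour, stood at 19.97 and 18.44 CPM in healthy microglia-like cells, 101 and 93.5 CPM in controls and 77.6 and 76.1 CPM in Rbpj-deleted tumours.

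On chromosome 5, Gbp4 went from almost nothing to a moderate level. Microglia-like cells had 7 and 1 UMIs in healthy brain (0.231 and 0.0878 CPM), against 46.9 and 21.7 CPM in controls and 8.02 and 7.75 CPM in Rbpj-deleted tumours. Macrophage-like cells had 5 and 1 UMIs in healthy brain, against 106.9 and 58.7 CPM in controls and 24.4 and 33.1 CPM in Rbpj-deleted tumours. Its order was the same in both classes: healthy lowest, Rbpj-deleted next and control highest, with no overlap between groups.

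Gbp8 stood at 1.82 and 0.790 CPM in healthy microglia-like cells, 72.1 and 70.9 CPM in controls and 29.96 and 32.73 CPM in Rbpj-deleted tumours. Gbp9 moved over a smaller range in these cells, from 5.74 and 6.76 CPM to 25.6 and 17.2 CPM in controls and 21.5 and 16.9 CPM in Rbpj-deleted tumours. The 2 tumour genotypes overlapped for Gbp9 and did not for Gbp8. Gbp11 stayed at or below 0.861 CPM in microglia-like cells and had 1 UMI in healthy macrophage-like cells. In tumour macrophage-like cells it stood at 33.0 and 14.9 CPM in controls and 8.33 and 12.5 CPM in Rbpj-deleted tumours.

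In the fits over all genes, 8 of 8 members tested were called higher in control than in healthy microglia-like cells, where 2.91% of all genes tested were. For Rbpj-deleted tumours the count was also 8 of 8, beside 8.38% of all genes. In macrophage-like cells it was 8 of 9, beside 7.33%, for controls and 8 of 9, beside 6.37%, for Rbpj-deleted tumours, and the member not called was Gbp7 in both. All tested members had tumour sums above both healthy sums in each contrast, as had 23.9%, 28.2%, 29.7% and 29.2% of all genes in the same order. Since the family was chosen on this contrast, nothing is read from these counts. The median fold change of the members against healthy brain was 4.58 on the log2 scale in control microglia-like cells and 3.85 in control macrophage-like cells. Both tumour contrasts share the healthy libraries.

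T cell markers were also higher in tumour than in healthy microglia-like sums, and they overlapped between the groups in macrophage-like sums. The 10 T cell markers summed to 5.62 to 6.67 CPM in healthy microglia-like cells, 25.3 to 38.4 CPM in controls and 29.96 to 34.74 CPM in Rbpj-deleted tumours. Cd3e, a defining marker, was at 0.0878 to 3.73 CPM in these 6 sums, and none of the 10 T cell markers was at 0. In macrophage-like cells the T cell markers summed to 53.5 to 57.1 CPM, 55.7 to 66 CPM and 45.5 to 80.8 CPM in the same order. Their part in the family's level was not tested. Gbp2 stood at 42.0 to 149.0 CPM in tumour T-like cells.

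The difference was also measured per cell at matched depth. Each cell was thinned to 2000 UMIs, and shallower cells were left out, 263 and 258 in healthy microglia-like cells and 19 to 161 in the tumour libraries. At least 3 family members were then detected in 0.0644% and 0.119% of healthy microglia-like cells. The share was 21.3% and 15.6% in controls and 5.70% and 6.75% in Rbpj-deleted tumours. In macrophage-like cells it was 0.574% and 1.09% in healthy brain, 53.7% and 33.9% in controls and 34.9% and 38.9% in Rbpj-deleted tumours. The share in T-like cells of tumours was 4.81% to 10.9%.

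Before thinning, the shares with at least 3 members were 1.99% and 0.931% in healthy microglia-like cells and 29.0% to 43.4% in tumours. Cells with a Gbp2 UMI after thinning were 0.880% and 1.37% of healthy microglia-like cells, 34.3% and 30.1% in controls and 23.2% and 25.3% in Rbpj-deleted tumours. Unthinned, the 4 tumour shares for Gbp2 lay between 44.2% and 46.3% and did not part the genotypes. Median depth was higher in control cells (9282 and 7572.5 UMIs) than in Rbpj-deleted cells (6860 and 5335).

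The tumour genotypes were compared next, a contrast on which the family was not chosen. In both myeloid classes it shares the control sums with the contrast that led to the choice. Genes picked for high control sums tend to lower estimates here, so their signs and counts are not free of that choice. In microglia-like cells 7 of 8 members tested had a lower point estimate in Rbpj-deleted than in control tumours, and none passed an adjusted p of 0.05 in edgeR's quasi-likelihood test with Benjamini-Hochberg adjustment over 11140 genes, where 0.0898% of genes passed. At an unadjusted p under 0.05 the count was 5 of 8, beside 13.8% of all genes. DESeq2 called 4 of 8 lower (Gbp4, Gbp5, Gbp7 and Gbp8), beside 0.613% of all genes. In 6 of the 8 both Rbpj-deleted sums lay below both controls, beside 22.7% of all genes. The 13 macrophage markers summed to 202.4 and 160 CPM in these control sums and to 223.7 and 780 CPM in the Rbpj-deleted ones, with 0 to 3 of them at 0, and Ms4a7 among them reached 334.2 CPM in Rbpj-deleted 2. Their part in the result was not tested.

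Gbp4 had the lowest estimate, -2.02 ± 0.38 (SE) on the log2 scale, with an edgeR adjusted p of 0.0689. It was followed by Gbp8 at -1.09 ± 0.26 (edgeR adjusted p = 0.140), Gbp5 at -0.98 ± 0.21 (edgeR adjusted p = 0.0985) and Gbp2 at -0.92 ± 0.32 (edgeR adjusted p = 0.288). Gbp7 was at -0.64 ± 0.19, Gbp3 at -0.24 ± 0.19 and Gbp9 at -0.05 ± 0.28. Gbp2b alone was positive, at 0.65 ± 0.65. The median over the 8 members was -0.78, against 0 for all genes.

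The call depended on the setting and on which cells were counted. Over the alternatives tried, the Gbp4 adjusted p ran from 2.285e-06 to 0.634. Gbp4 passed in 7 of them, including DESeq2, the fit without the filter, the fit with mixed barcodes kept and the fits without healthy 1, healthy 2 or Rbpj-deleted 1. Without the microglia-like cluster led by Csf1, Egr3 and Tnf, the Gbp4 estimate was -0.77 ± 0.73, Gbp5 was at -0.25, Gbp8 at -0.14 and Gbp2 turned to 0.53 ± 0.25 (edgeR adjusted p = 0.322).

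That cluster held 37.0% and 40.2% of microglia-like cells in controls, but 63.7% in Rbpj-deleted 1 and 9.28% in Rbpj-deleted 2. Within it the family summed to 2538 and 1547 CPM in controls and to 651 and 1035 CPM in Rbpj-deleted tumours, with no overlap. A further cluster, led by Egr3, Csf1 and Il1b, stayed unnamed and is in no class. It held 18 and 16 cells in controls, 198 in Rbpj-deleted 1 and 19 in Rbpj-deleted 2. The part of its absence in the result was not tested. In the Spp1-led cluster, the largest in Rbpj-deleted 2, the family summed to 1226 and 669 CPM in controls and to 465 and 588 CPM in Rbpj-deleted tumours. In the healthy libraries the same Spp1-led cluster had 79.0 and 106.6 CPM.

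Not all tumour microglia-like cells had a high level. In the cluster led by Adamts1 the family was at 185.1 and 320.7 CPM in controls, and healthy 1 had 117.1 CPM in it. In the cluster led by Hspb1 and Gpr34 it was at 228.1 CPM in control 2 and 235.1 and 226.4 CPM in Rbpj-deleted tumours, against 165.8 and 155.7 CPM in healthy brain. Healthy 1 also had a cluster led by Ifit3 and Mx2, genes known to be induced by type I interferon. It had 276.3 CPM of the family, of which 173.6 were Gbp7, and 0 UMIs of Gbp2b.

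**Figure D3:**
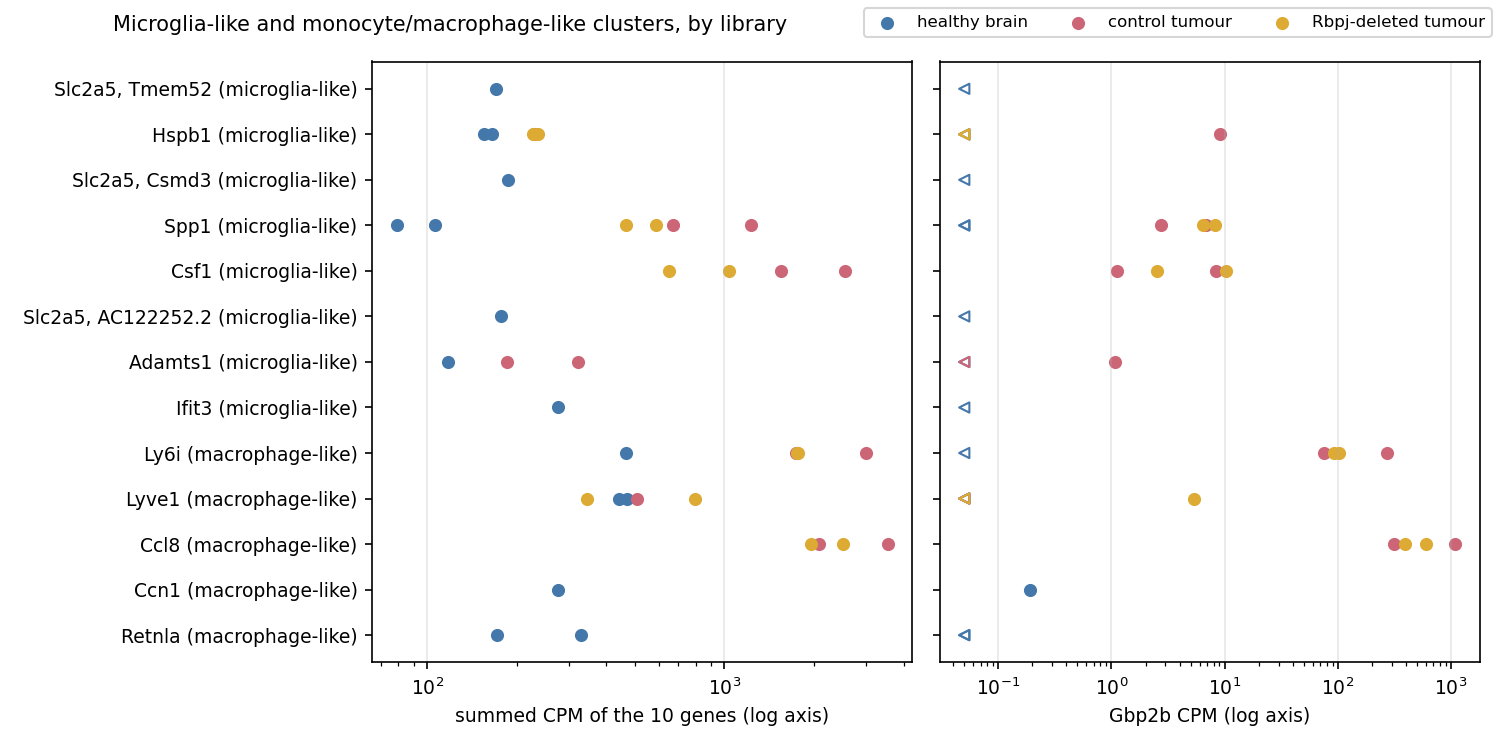
Summed CPM of the 10 genes (left) and CPM of Gbp2b (right), both on log axes, in each microglia-like and macrophage-like cluster with at least 20 cells in a library, 1 point a library; open triangles mark 0 UMIs. Tumour points of the Csf1-led cluster run from 651 to 2538 CPM on the left, and Gbp2b reaches 315.6 to 1092 CPM in the Ccl8-led cluster on the right.

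In macrophage-like cells all 9 members tested had a negative estimate between the genotypes, and none passed in edgeR, where 0.019% of 10532 genes passed. At an unadjusted p under 0.05 there were 2 of 9 (Gbp4 and Gbp11), beside 5.26% of all genes, and DESeq2 called 0 of 9, beside 0.207% of all genes. In 3 of the 9, Gbp4, Gbp5 and Gbp11, the Rbpj-deleted sums lay below the controls, beside 16.3% of all genes. Gbp4 was at -1.59 ± 0.32 (SE, log2; edgeR adjusted p = 0.477) and Gbp11 at -1.30 ± 0.43 (edgeR adjusted p = 0.777). For Gbp2 the interval of the difference ran from -1.75 to 1.06 and for Gbp7 from -0.80 to 0.43.

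Control 1 weighed on these signs. Without it, 6 members turned positive, with Gbp2 at 0.13, Gbp2b at 0.31, Gbp3 at 0.06, Gbp7 at 0.02, Gbp8 at 0.33 and Gbp9 at 0.37. Gbp4, Gbp5 and Gbp11 stayed negative there.

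In T-like cells of the tumours 7 members were tested and none passed in edgeR, where 0.209% of 7174 genes passed. At an unadjusted p under 0.05 there was 1 of 7, Gbp2, beside 7.05% of all genes, and DESeq2 called 0 of 7, beside 0.418% of all genes. Both Rbpj-deleted sums lay above both controls for 2 of 7 (Gbp2 and Gbp9), beside 18% of all genes. Gbp2 stood at 74.5 and 42.0 CPM in controls and 77.8 and 149.0 CPM in Rbpj-deleted tumours, with an estimate of 0.87 ± 0.37 (SE, log2; edgeR adjusted p = 0.696). The 8 NK cell markers also differed between these T-like sums. They summed to 673 and 620.3 CPM in controls and 1538 and 1925 CPM in Rbpj-deleted tumours, with 1 to 3 of them at 0, and Ncr1, a defining receptor of NK cells, stood at 6.95 and 13.04 CPM against 42.9 and 74.5 CPM. Their part in the Gbp2 value was not tested. The other 6 members lay between -0.03 and 0.39, with intervals that reached from -0.89 to 1.21.

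**Figure D4:**
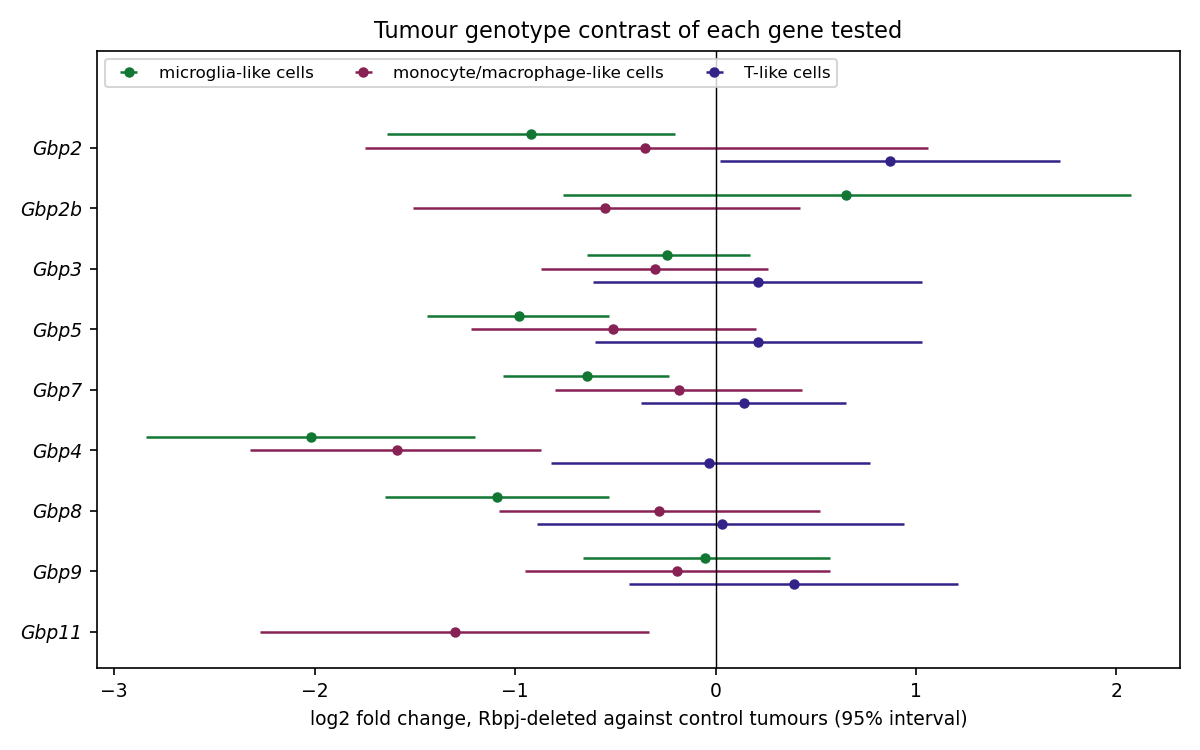
Log2 fold change of each gene tested between Rbpj-deleted and control tumours (x axis), with its 95% interval, in microglia-like, macrophage-like and T-like cells. Gbp4 is lowest in both myeloid classes, at -2.02 and -1.59, and lies at -0.03 in T-like cells.

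For Gbp2 the genotype contrast differed between T-like and microglia-like cells. The difference of the 2 contrasts, chosen for testing after the values were seen, was 1.76 ± 0.32 (SE, log2), with an edgeR adjusted p of 0.00482 over 9306 genes, of which 0.333% passed. It was not called by DESeq2 (adjusted p = 0.239), without Rbpj-deleted 2 (1.26), with mixed barcodes kept (0.95) or without the Csf1-led cluster (0.34). For Gbp4 it was 1.92 ± 0.49 (edgeR adjusted p = 0.0835). Between macrophage-like and microglia-like cells no member's contrast differed at this threshold, where 0.0735% of genes did. Gbp2 (0.54 ± 0.24, edgeR adjusted p = 0.464) and Gbp2b (-1.14 ± 0.47, edgeR adjusted p = 0.438) were under 0.05 only unadjusted, in opposite directions. The share of all genes at that level was not counted, so nothing is read from these values.

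Within the 4 tumour libraries, the 8 members that had also passed the filter in microglia-like cells alone were all called higher in macrophage-like than in microglia-like cells, where 23.8% of 9521 genes were called higher. In each of the 8 the macrophage-like sum lay above the microglia-like sum of the same library in all 4 libraries, beside 29.8% of all genes. Between libraries the sums could overlap. Gbp2 was at 520.3 CPM in the lowest macrophage-like sum and at 585.2 CPM in the highest microglia-like sum. Gbp2b differed most, by 5.93 ± 0.28 (SE, log2; edgeR adjusted p = 9.286e-07). The other 7 lay between 0.52 ± 0.14 (Gbp9; edgeR adjusted p = 0.0126) and 1.94 ± 0.26 (Gbp8). Gbp9 was not called with scaling by library size (0.39), and without the library block neither Gbp9 (0.53) nor Gbp4 (1.64) was. Gbp11 entered this fit only through the macrophage-like sums in which it was high, so its value of 4.64 is a description. It had 1, 1, 5 and 3 UMIs in the 4 tumour microglia-like sums.

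This order of the classes did not hold for all macrophages. Lyve1+ Pf4+ border macrophages had 506 CPM of the family in control 1 and 345 and 793 CPM in the Rbpj-deleted libraries, beside 442.3 and 471.5 CPM in healthy brain. Their Gbp2b was 0 to 5.39 CPM, from 21 to 26 cells a library. The Ccl8-led cluster, with 480 cells of which 4 were healthy, had 2084 to 3537 CPM of the family in controls and 1950 and 2511 CPM in Rbpj-deleted tumours.

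Gbp2b was highest in the Ccl8-led cluster, at 1092 and 315.6 CPM in controls and 395.9 and 607.5 CPM in Rbpj-deleted tumours. It took no part in the clustering, but it is among the genes that lead this cluster by level over the others. Its height there is therefore a description. In the Ly6i-led cells it was 273.1 and 75.9 CPM in controls and 103.0 and 93.1 CPM in Rbpj-deleted tumours. The order was the reverse for Gbp2 in every tumour library: 1319, 730, 742 and 847 CPM in the Ly6i-led cells and 559, 606, 365 and 653 CPM in the Ccl8-led cluster. Without the Ccl8-led cluster, Gbp2b was still 4.77 ± 0.26 (log2) higher in macrophage-like than microglia-like cells.

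T-like cells were compared with microglia-like cells of the same 4 libraries. Gbp2 was lower by -2.28 ± 0.36 (SE, log2; edgeR adjusted p = 0.000267), Gbp5 by -1.61 ± 0.23 (edgeR adjusted p = 1.231e-05) and Gbp3 by -0.52 ± 0.18 (edgeR adjusted p = 0.0161). These 3 of 8 called lower stand beside 35.3% of all 9306 genes tested. The differences for Gbp4 (0.59 ± 0.39) and Gbp9 (0.33 ± 0.24) were positive and did not pass. With barcodes of mixed lineage kept in, the Gbp2 difference was 0.04, Gbp3 0.24 and Gbp5 0.23. Without the Csf1-led cluster Gbp2 was at -1.17 and still called, and Gbp4 at 2.21 ± 0.31 was called higher.

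In tumour T-like and NK-like cells, as in healthy myeloid cells, Gbp7 was the most abundant member. Gbp7 gave 36.0% to 46.4% of the family in the 4 T-like sums and 40.2% to 43.4% in the 3 NK-like sums with at least 20 cells. The family summed to 462.6 and 423.2 CPM in control T-like cells, 560.8 and 599.8 CPM in Rbpj-deleted T-like cells, and 477.5 to 574.0 CPM in NK-like cells. Gbp2b had 0 to 13.4 CPM in T-like cells.

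Dendritic-like cells had more of the family in tumours than in healthy brain. The family summed to 225.7 and 263.6 CPM in healthy brain, 1068 CPM in control 1 and 1262 and 1653 CPM in Rbpj-deleted tumours. Gbp2 stood at 26.1 and 40.4 CPM in healthy brain, 533 CPM in control 1 and 485 and 803 CPM in Rbpj-deleted tumours. Gbp2b had 1 UMI in each healthy library, 50.8 CPM in control 1 and 87.3 and 198.5 CPM in Rbpj-deleted tumours. Control 2 had only 14 dendritic-like cells, so no test was made.

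Among dendritic cells the mature type, led by Ccl22 and Ccr7, had lower Gbp7 sums than the Cd209a-led type in 3 tumour libraries. No test was made, and the mature cells were few: 24 in control 1 and 66 and 31 in the Rbpj-deleted libraries. The mature cells of control 1 had 9.97 CPM of Gbp7 against 183.1 CPM in the Cd209a-led cells. In the Rbpj-deleted libraries the values were 202.3 against 252.4 CPM and 123.1 against 249.4 CPM. Gbp3 was also lower in the mature cells of all 3 libraries, at 43.2, 119.4 and 101.2 CPM against 81.95, 172.5 and 171.5 CPM. Gbp5 was higher in them, at 222.7, 201.6 and 205.1 CPM against 91.5, 74.1 and 145.5 CPM. So was Gbp8, at 83.08, 131.8 and 123.1 CPM against 76.63, 122.7 and 77.94 CPM. B-like cells, with 20 to 61 cells a library, had 39.9 and 142.7 CPM of the family in healthy brain, 485.9 CPM in control 1 and 110.0 CPM in Rbpj-deleted 2.

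**Figure D5:**
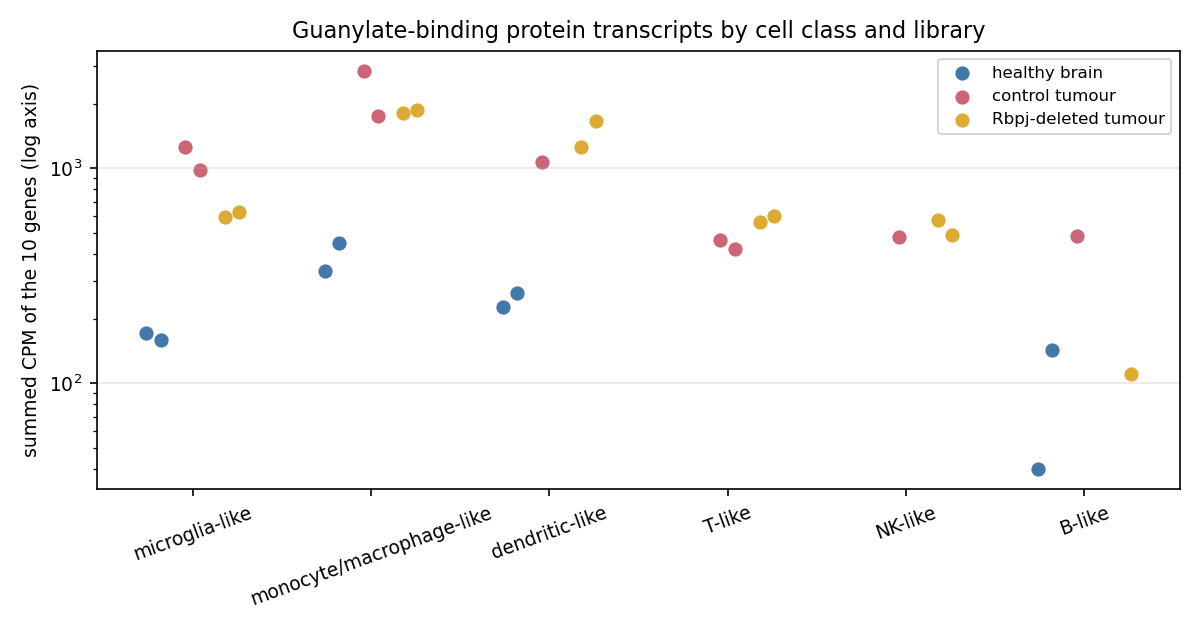
Summed CPM of the 10 genes (log axis) in microglia-like, macrophage-like, dendritic-like, T-like, NK-like and B-like sums of at least 20 cells, 1 point a library. Tumour points of the first 3 classes lie between 593.9 and 2848 CPM, and those of T-like and NK-like cells between 423.2 and 599.8 CPM.

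Other parts of the pathway were read from lists of genes chosen with earlier results known. Their counts and p-values against healthy brain are therefore a description and support nothing. Interferon-gamma itself, Ifng, was at 718 to 1228 CPM in tumour T-like cells, 191.9 to 454.4 CPM in NK-like cells and at most 3.76 CPM in microglia-like sums. Ifngr1 stood at 1521 and 1993 CPM in healthy microglia-like cells, 850 and 921 CPM in controls and 744 and 621 CPM in Rbpj-deleted tumours. Its change was -1.15 ± 0.23 (SE, log2; edgeR adjusted p = 0.00582) in Rbpj-deleted tumours and -0.88 ± 0.22 (edgeR adjusted p = 0.0547) in controls. The second chain, Ifngr2, was nearly absent from T-like cells, at 5.80 to 21.01 CPM, beside 251.6 to 312.6 CPM in tumour microglia-like cells.

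The list of the interferon-gamma signal also holds genes of the type I interferon pathway: Ifnar1, Ifnar2, Stat2, Irf9 and Usp18. Its counts and medians are therefore not specific to interferon-gamma. Of its 16 genes, 6 rose in control against healthy microglia-like cells, beside 2.91% of all genes, and 0 fell, beside 0.377%. The median of the list was 1.38 on the log2 scale, against -0.02 for all genes. Irf1, the activator of ISRE elements, rose by 2.79 ± 0.22 (edgeR adjusted p = 1.095e-05) and Nlrc5, the activator of MHC class I genes, by 5.72 ± 0.43. In control macrophage-like cells 8 of 16 rose, beside 7.33% of all genes. In Rbpj-deleted microglia-like cells 8 rose, beside 8.38%, and 1 fell, beside 3.49%. In Rbpj-deleted macrophage-like cells 7 rose, beside 6.37%. Within tumours 8 of 15 were higher in macrophage-like than microglia-like cells, beside 23.8%, and 1, Ifngr1, was lower, beside 20.9%.

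Of the 11 caspase and inflammasome partners, 3 rose in control microglia-like cells, beside 2.91% of all genes: Zbp1, a nucleic acid sensor, by 4.51 ± 0.32, Casp4, which encodes caspase-11, by 2 ± 0.39, and Casp1 by 1.09 ± 0.20 (SE, log2; largest edgeR adjusted p = 0.0308). In control macrophage-like cells 5 rose, beside 7.33% of all genes, including Gsdmd, which forms the pore of pyroptosis, at 1.61 ± 0.29. In control microglia-like cells 0 of 10 genes of the autophagy-like conjugation used to target these GTPases passed, with a median of 0.01. Of the prenylation enzymes 0 of 6 passed, with a median of -0.20. In either direction 3.29% of all genes passed there, so counts of 0 do not set these short lists apart. In Rbpj-deleted microglia-like cells 2 of 10 conjugation genes rose, beside 8.38% of all genes.

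Between tumour genotypes edgeR called 0 of 16, 0 of 10, 0 of 11 and 0 of 6 genes of the 4 lists in microglia-like cells, beside 0.0898% of all genes. At an unadjusted p under 0.05 there were 0, 4, 1 and 1, beside 13.8% of all genes, and DESeq2 called 1, in the caspase list. The median of the interferon-gamma list in this contrast was -0.08, and that of the family, given above, -0.78.

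Over the 12 microglia-like and macrophage-like sums, each of the 8 genes tested in both classes was correlated (Pearson, log2 CPM) with the mean of the other 7. The values were 0.986 for Gbp3 and Gbp5, 0.95 for Gbp4, 0.949 for Gbp8, 0.945 for Gbp2 and 0.936 for Gbp9, and they were lower for Gbp2b (0.861) and Gbp7 (0.807). Outside the family, the genes most like its mean among 9389 were Il12rb1 (0.986), Psmb8 (0.98), Il18bp (0.979), Psmb9 (0.977) and Ciita (0.971). Slamf7 (0.97), Tnfaip2 (0.968), March5 and Sp110 (both 0.967) and Fcgr4 (0.966) followed. The 12 points are pairs of sums from 6 libraries, and the values describe these libraries only. They hold healthy and tumour sums, and the family was chosen for differing between those. High values among its members were bound to follow from that choice and support nothing.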

How the data were processed

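The deposited file holds whole-number UMI counts per gene and barcode for 6 libraries of sorted CD45+ cells (10x 3′ v3, per the labels' protocols). The submitters' processing notes name kallisto 0.46.0, bustools 0.39.3 and mm10. The lowest count per barcode in the file was 1000 and the highest mitochondrial share 9.154%. The role of each tool, cell filters and doublet removal by the authors are not given in the sources used here. Library totals ran from 17430763 to 55229031 counts. Symbols came from GENCODE vM21 (27359 of 27378 IDs).

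Removed were 17 barcodes with under 500 genes or over 10% mitochondrial counts, 256 whose sequence had at least 10 times more counts in another library, and 2616 with at least 3 marker counts of a second lineage at 5% of its level, the treatment of doublets used here. Clustering (2000 variable genes without the family and Gbp10, 30 components, 20 neighbours, Leiden resolution 1) gave 28 clusters, 5 of them unnamed. UMIs were summed per library and class (20 cells or more for levels). Tests used edgeR 4.0.16 (filterByExpr, TMM, robust quasi-likelihood, Benjamini-Hochberg over all genes), with 3 residual degrees of freedom (2 for T-like cells), the library as a block between classes. Shares of cells used cells thinned to 2000 UMIs. Single-library intervals are exact and, with the floor of 3 counts, cover counting error only. The edgeR fits of the group and class comparisons were also run on simulated counts, with 200 genes set to change by 2 (log2). They called 167 to 198 of these genes, and 8 to 28 unchanged genes. The simulated counts held no split between libraries. The difference of contrasts and the DESeq2 fits were not run on them.

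All 10 members are named whatever their values. Named beside them are the 10 genes most correlated with the family mean and genes of 4 pathway lists with the smallest p. Members and lists were chosen with earlier results of these data known. Alternatives were DESeq2 1.42.0, library-size scaling, no filter, each library left out, a replicate block, the library split as a batch, other treatments of mixed barcodes, classes without 1 cluster, and the family among the clustering genes; a crossed block, the classes without the Ccl8-led cluster, and the difference of contrasts between classes were added after the data were seen. Results for a few genes are not reported here.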

Additional observations from a re-analysis of the deposited data

Results flagged for a closer look

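The Rbpj-deleted against control contrast of Gbp2 differed between T-like and microglia-like cells by 1.76 (log2), by a test of the difference itself. Gbp2 had higher sums in Rbpj-deleted than control T-like cells and lower sums in Rbpj-deleted than control microglia-like cells. Left-out libraries moved the difference between 1.26 and 2.09. Without the Csf1-led microglia-like cluster it was 0.34 ± 0.31 (SE; edgeR adjusted p = 0.781). Summed microglia markers were 97.3 to 309.4 CPM in control and 220.0 to 504.3 CPM in Rbpj-deleted T-like sums, and NK cell markers 620.3 to 673 CPM and 1538 to 1925 CPM. Their part in the result was not tested. Groups of 2 libraries are too small for a check of single outlying libraries.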

How the results depend on the processing

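Against healthy brain no member changed direction under any alternative tried. Calls were lost for 3 of 120 (control) and 6 of 120 (Rbpj-deleted) values in microglia-like cells, all of Gbp7 or Gbp9. In macrophage-like cells 2 of 135 (control) and 5 of 135 (Rbpj-deleted) were lost, all of Gbp9 but 1 of Gbp2, and 2 of Gbp7 were gained in controls. In the microglia-like genotype contrast 18 of 120 member values gained a call and 5 reversed. In the macrophage-like one 1 of 135 gained a call and 7 reversed, and in the T-like one 13 of 84 reversed. Between classes 5 of 117 values (macrophage-like) lost a call, and against T-like cells 4 of 91 lost one, 7 gained one and 10 reversed. The cause of these changes was not tested.

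Between Rbpj-deleted and control microglia-like cells 10 genes were called, and 178 with DESeq2, 4 with library size scaling, 475 with no filter, 4 with the higher level for mixed barcodes and 5 without the Csf1-led cluster. For macrophage-like cells the count was 2, with DESeq2 21, with no filter 108, and with mixed barcodes kept or at the higher level 0. For T-like cells it was 15, with DESeq2 30, with no filter 157 and with mixed barcodes kept 79. Against healthy microglia-like cells the control count of 366 became 707 with no filter and 53 without the Csf1-led cluster, and the Rbpj-deleted count of 1322 became 860 without it. Against healthy macrophage-like cells the control count of 1144 became 2012 with no filter and 1723 without the Ccl8-led cluster, and the Rbpj-deleted count of 1015 became 1941, 1808 and, with the library split as a batch, 478. T-like against microglia-like, 6290 genes became 3985 with mixed barcodes kept.

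Same-numbered libraries did not deviate together (correlations 0.06, -0.12 and -0.17 in microglia-like and -0.22, 0.1 and -0.26 in macrophage-like cells). No pairing by number was seen, but the healthy libraries also differ by the split of Trim12a, so this check cannot exclude pairing. With the replicate number as a block the genotype counts were 57 (microglia-like) and 1 (macrophage-like), the control macrophage-like count against healthy was 759, Gbp4 in microglia-like cells was called, and Gbp8 in T-like cells was -0.06. With crossed numbers in the block the genotype counts were 32 in microglia-like and 57 in T-like cells.

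Leaving out 1 library gave 0 to 564 genes (genotype, microglia-like), 0 to 35 (macrophage-like), 1 to 73 (T-like), 143 to 587 and 880 to 1766 (control and Rbpj-deleted against healthy, microglia-like), 230 to 1167 and 320 to 1088 (the same, macrophage-like), 3419 to 3746 (macrophage-like against microglia-like) and 5346 to 6318 (T-like against microglia-like). In the genotype contrast of macrophage-like cells it gave log2 values of -0.72 to 0.13 for Gbp2, -1.05 to 0.31 for Gbp2b, -0.56 to 0.06 for Gbp3, -0.34 to 0.02 for Gbp7, -0.67 to 0.33 for Gbp8 and -0.49 to 0.37 for Gbp9. In microglia-like cells it gave -0.3 to 0.28 for Gbp9, and in T-like cells -0.38 to 0.67 for Gbp3, -0.43 to 0.23 for Gbp4, -0.08 to 0.49 for Gbp5 and -0.58 to 0.39 for Gbp8.

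Reversed without the Csf1-led cluster were, in the microglia-like genotype contrast, Gbp2 (0.53), Gbp3 (0.22) and Gbp9 (0.01) and, T-like against microglia-like, Gbp3 (0.09), Gbp7 (0.1) and Gbp8 (0.46). In the T-like genotype contrast Gbp4 was 0.08 with library size scaling and 0.04 with the higher level for mixed barcodes, Gbp8 was -0.02 with no filter, and with mixed barcodes kept Gbp5 was -0.1, Gbp7 -0.07 and Gbp9 -0.06. T-like against microglia-like, Gbp2b was -0.15 with DESeq2 and -0.05 with no filter, and with mixed barcodes kept Gbp2 was 0.04, Gbp3 0.24, Gbp5 0.23, Gbp7 0.31 and Gbp8 0.68.

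Library size scaling moved the median of all genes against healthy brain from -0.02 to -0.12 (control) and -0.23 (Rbpj-deleted) in microglia-like cells, and from -0.03 to -0.40 and -0.02 to -0.34 in macrophage-like cells. Higher and lower calls went from 8 and 2 to 2 and 2 (genotype, microglia-like), from 933 and 389 to 685 and 968 (Rbpj-deleted, microglia-like), from 772 and 372 to 518 and 1151 (control, macrophage-like), from 671 and 344 to 462 and 888 (Rbpj-deleted, macrophage-like) and from 2266 and 1993 to 1818 and 2482 (macrophage-like against microglia-like). Gbp6, and Gbp11 in microglia-like cells, were too rare to compare at this depth.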

Other observations

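Gbp10, a row outside the 10 genes whose 3′ end cannot be told apart from that of Gbp6, had 0 UMIs in both healthy microglia-like and both healthy macrophage-like sums. In tumours it stood at 10.4 and 7.88 CPM in control microglia-like cells and 1.42 and 0.287 CPM in Rbpj-deleted ones. In macrophage-like cells it stood at 16.7 and 9.95 CPM in controls and 11.8 and 4.63 CPM in Rbpj-deleted tumours. It was named after its values were seen, and no test was made.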
